A study of Mus musculus with 4 samples.

Results

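Transcripts of 9 G protein-coupled receptors that set how strongly fat cells break down triglyceride were examined in gWAT, the gonadal depot of white fat. The receptors are the β3- and β1-adrenergic receptors (Adrb3 and Adrb1), the α2A-adrenergic receptor (Adra2a), the lactate receptor Hcar1, the ketone body and niacin receptor Hcar2, the prostaglandin E2 receptor EP3 (Ptger3), the adenosine A1 receptor (Adora1), the neuropeptide Y receptor Y1 (Npy1r) and the oxytocin receptor (Oxtr). They are 9 of the 45706 genes of the deposited table, found there by gene name. The set was chosen with measured values of the same contrast known, so the differences between the groups are given below as a description, with standard errors and no p-values.

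RNA came from 4 mice, labelled C57B6/N, and the methods describe male mice. All 4 had been on a high-fat diet (HFD) for 2 months according to the labels. The HFD group was 2 such mice without the drug, and the HFD+Cana group was 2 such mice that ate canagliflozin, an inhibitor of the kidney glucose transporter SGLT2, at 0.03% of the food by weight for 7 days. No genotype other than the strain and no age is given in the labels, and there was no group on normal chow. Whole tissue was sequenced, so fewer cells of a type and less RNA per cell cannot be told apart. Values are TPM, a measure of transcript abundance in which reads are corrected for transcript length and each sample is scaled to the same total. TPM holds no record of read depth, so precision is known only from the spread between the mice. The standard errors below come from a model of all genes tested (limma). It draws the spread of each gene toward that of genes at a similar level. A standard error can thus be smaller than the gene's own mice alone would give.

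In a fat cell, catecholamines act on β-adrenergic receptors, which couple to the stimulatory G protein Gs and raise cyclic AMP (cAMP). Protein kinase A then phosphorylates perilipin 1 and hormone-sensitive lipase, and the stored triglyceride is hydrolysed. Receptors coupled to the inhibitory G protein Gi (Adra2a, Hcar1, Hcar2, Ptger3, Adora1 and Npy1r in the set) lower cAMP and restrain this process, each in answer to its own ligand. Oxtr couples mainly to Gq, which releases calcium.

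The genes lie on several chromosomes, as given here from GENCODE M21 on GRCm38, and all 9 are protein coding. Adrb3 spans positions 27225776 to 27250616 of chromosome 8, and Npy1r positions 66697192 to 66706792 of the same chromosome. Adrb1 (56722199 to 56733113) and Adra2a (54044151 to 54048982) are both on chromosome 19. Hcar1 (123876736 to 123880020) and Hcar2 (123863570 to 123865499) are neighbours on chromosome 5, 11236 bp apart with 0 annotated genes between them. Ptger3 is on chromosome 3 (157566892 to 157645888), Adora1 on chromosome 1 (134199223 to 134235431) and Oxtr on chromosome 6 (112473683 to 112489943). Adora1 overlaps Mybph on the other strand, which was listed at no more than 0.136 TPM in any mouse, and Adrb3 overlaps Gm45470 on the other strand, which was not analysed here. The sources used here do not give the strand setting of the quantification.

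The promoter windows of Oxtr, Adora1 and Ptger3 are shown because these are the 3 receptors above the filter on low values with lower TPM in both HFD+Cana mice than in both HFD mice. Each window runs from 250 bases before to 50 bases after a RefSeq transcript start (GRCm38.p6), 5′ to 3′ on the strand of the gene, and capitals mark GGGCGG or its reverse complement CCGCCC, the letters of a GC box.
Oxtr, chr6:112489776-112490075, minus strand: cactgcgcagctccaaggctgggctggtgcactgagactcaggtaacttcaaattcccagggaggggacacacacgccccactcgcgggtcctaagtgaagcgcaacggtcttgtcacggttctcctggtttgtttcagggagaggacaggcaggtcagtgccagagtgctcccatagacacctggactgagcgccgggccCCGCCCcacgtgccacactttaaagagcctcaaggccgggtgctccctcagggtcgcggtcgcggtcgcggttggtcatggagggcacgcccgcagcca
Adora1, outer start, chr1:134235408-134235707, minus strand: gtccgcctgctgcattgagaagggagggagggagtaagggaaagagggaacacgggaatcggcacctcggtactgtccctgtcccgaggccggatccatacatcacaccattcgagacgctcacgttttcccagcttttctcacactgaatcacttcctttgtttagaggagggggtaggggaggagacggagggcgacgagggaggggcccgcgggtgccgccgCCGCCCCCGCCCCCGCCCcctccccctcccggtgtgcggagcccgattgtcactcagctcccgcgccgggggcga
Ptger3, chr3:157566626-157566925, plus strand: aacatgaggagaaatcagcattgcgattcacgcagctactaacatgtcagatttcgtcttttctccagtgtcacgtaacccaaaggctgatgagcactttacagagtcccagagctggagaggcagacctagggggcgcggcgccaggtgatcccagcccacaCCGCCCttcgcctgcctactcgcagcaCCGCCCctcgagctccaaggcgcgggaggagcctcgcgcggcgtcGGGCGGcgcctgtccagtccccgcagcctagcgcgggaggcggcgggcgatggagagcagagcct

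The GC box letters occurred 3 times in the outer Adora1 window, 3 times in the Ptger3 window and 1 time in the Oxtr window. Of 32851 RefSeq promoter windows of this length, 35.7% hold them on either strand. The 3 printed windows had GC contents of 63.7% (Oxtr), 66.0% (Adora1) and 64.0% (Ptger3), beside a median of 52.7% over all windows. The letters CACGTG, known as an E-box, lie directly after the GC box letters of Oxtr and also occur in the window of Adra2a, and 7.15% of all windows hold them. The window at the other Adora1 start held GGGCGG 0 times. Windows were found for 7 of the 9 receptors, and 5 of the 7 receptors held the GC box letters. The windows of Adra2a and Adrb1 held them 1 time each, at GC contents of 68.7% and 72.3%. Those of Hcar1 and Npy1r held GGGCGG 0 times. The letters TGACG, the core of a cAMP response element, were in the windows of 2 of these 7 receptors and in 20.8% of all windows, with none in the 3 windows printed. These matches describe letters and were not tested as sites.

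**Figure D1:**
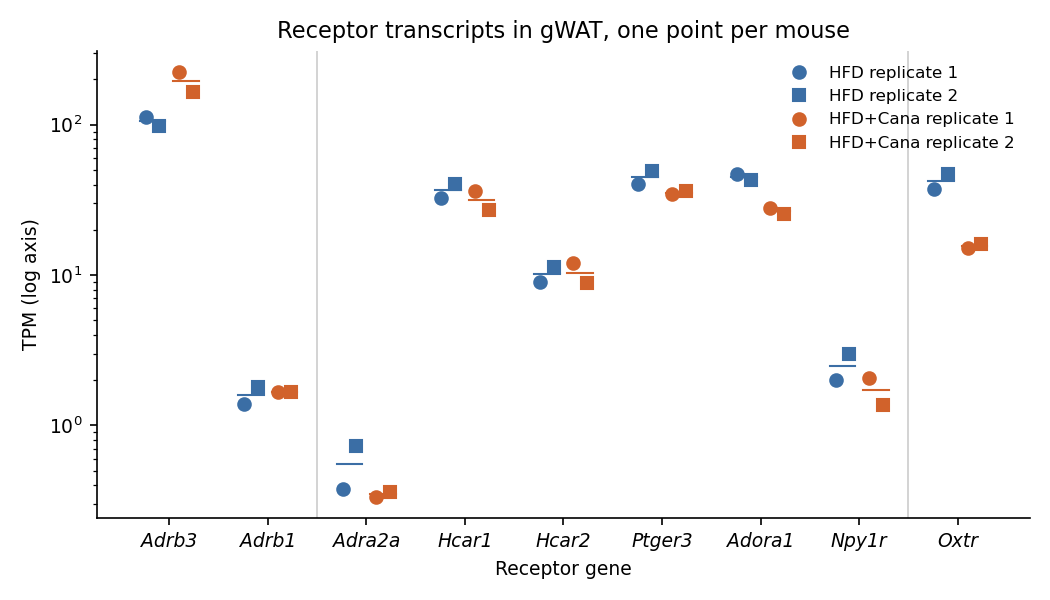
TPM (log axis) of each of the 9 receptor genes in each mouse, with circles for replicate 1, squares for replicate 2, blue for HFD, orange for HFD+Cana and short lines at the group means. From left to right, grey lines part the Gs-coupled, the Gi-coupled and the Gq-coupled receptors. Adrb3 lies higher in both HFD+Cana mice (165 and 224 TPM) than in both HFD mice (98.5 and 112 TPM), and Ptger3, Adora1 and Oxtr lie lower.

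Adrb3, the main β-adrenergic receptor of rodent fat cells, was the most abundant of the 9. Its level was 112 and 98.5 TPM in HFD replicates 1 and 2 and 224 and 165 TPM in HFD+Cana replicates 1 and 2. The groups did not overlap, and the means of 105 ± 9.38 (SD, n = 2) and 195 ± 41.8 TPM (SD, n = 2) made a ratio of 1.85. On the log2(TPM + 1) scale used for all fold changes below, the difference was 0.87 (SE 0.17). The spread between the 2 HFD+Cana mice was wide beside that of the HFD mice, and leaving out HFD+Cana replicate 1 gave a difference of 0.65 and leaving out HFD+Cana replicate 2 gave 1.09. Of 13788 genes tested, Adrb3 was number 206 from the highest fold change and number 941 by mean level.

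Adrb1, the β1-adrenergic receptor, was listed at a small fraction of the level of Adrb3. It was at 1.39 and 1.79 TPM in the HFD mice, against 1.68 and 1.66 TPM in the HFD+Cana mice, so the HFD+Cana mice lay between the HFD mice. The difference was 0.05 (SE 0.18), and its sign turned without HFD replicate 1 (-0.07) and with quantile normalization (-0.05). The ratio of Adrb3 to Adrb1 within a mouse was 80.2 and 54.9 in HFD and 134 and 99.4 in HFD+Cana.

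Among the Gi-coupled receptors, Adora1, which binds adenosine, differed most between the groups. Its level was 47.4 and 43.1 TPM on HFD alone and 27.7 and 25.3 TPM with canagliflozin. The groups were far apart beside the spread within each, with means of 45.2 ± 3.03 and 26.5 ± 1.70 TPM (SD, n = 2 each), a ratio of 0.586 and a log2 fold change of -0.75 (SE 0.10). Leaving out any 1 mouse gave -0.81 to -0.68, and Adora1 was number 172 from the lowest fold change of 13788.

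Ptger3, which binds prostaglandin E2, was at 40.3 and 49.0 TPM in the 2 HFD mice and 34.4 and 36.1 TPM in the 2 HFD+Cana mice. Both values under canagliflozin were the lower ones, but the nearest mice of the groups differed by less than the HFD mice did from each other. The log2 fold change was -0.33 (SE 0.12), with -0.46 to -0.19 when 1 mouse was left out.

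The neighbouring hydroxycarboxylic acid receptors overlapped between the groups. Hcar1, which binds lactate, was at 32.7 and 40.4 TPM in the HFD mice, against 36.1 and 27.1 TPM in the HFD+Cana mice, which made a log2 fold change of -0.21 (SE 0.18) that ran from -0.41 without HFD+Cana replicate 1 to -0.01 without HFD+Cana replicate 2. Hcar2, which binds β-hydroxybutyrate and niacin, was at 9.01 and 11.3 TPM on HFD alone and 11.9 and 8.83 TPM with canagliflozin, which made a log2 fold change of 0.02 (SE 0.19). Its sign turned without HFD replicate 1 (-0.13), without HFD+Cana replicate 1 (-0.18), with quantile normalization (-0.02) and with median-of-ratios scaling (-0.0012). The high and the low mouse of each group were the same for both genes, and the ratio of Hcar1 to Hcar2 was steady within groups, at 3.63 and 3.56 in HFD and 3.02 and 3.06 in HFD+Cana.

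The other Gi-coupled receptors were listed at low levels. Npy1r, which binds neuropeptide Y, was at 2.02 and 2.98 TPM in the 2 HFD mice and 2.07 and 1.36 TPM in the 2 HFD+Cana mice. The groups overlapped, and the log2 fold change was -0.37 (SE 0.24), with -0.56 without HFD replicate 1 and -0.17 without HFD replicate 2. Adra2a, the α2-adrenergic receptor, was at 0.377 and 0.730 TPM in the HFD mice, against 0.336 and 0.361 TPM in the HFD+Cana mice. Both HFD+Cana values were lower, HFD replicate 1 lay close to them, and the mean of the 4 mice was under the filter of 1 TPM, so Adra2a was not tested. Fitted with no filter, its log2 fold change was -0.19 (SE 0.14).

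Oxtr, the oxytocin receptor, had the fold change farthest from 0 of the 8 receptors fitted. Its level was 37.4 and 46.9 TPM on HFD alone and 15.2 and 16.0 TPM with canagliflozin. The lower HFD mouse was above both HFD+Cana mice by more than the spread within either group, and the means of 42.1 ± 6.76 and 15.6 ± 0.550 TPM (SD, n = 2 each) made a ratio of 0.370. The log2 fold change was -1.37 (SE 0.13), -1.53 to -1.21 when 1 mouse was left out, and Oxtr was number 26 from the lowest of 13788.

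**Figure D2:**
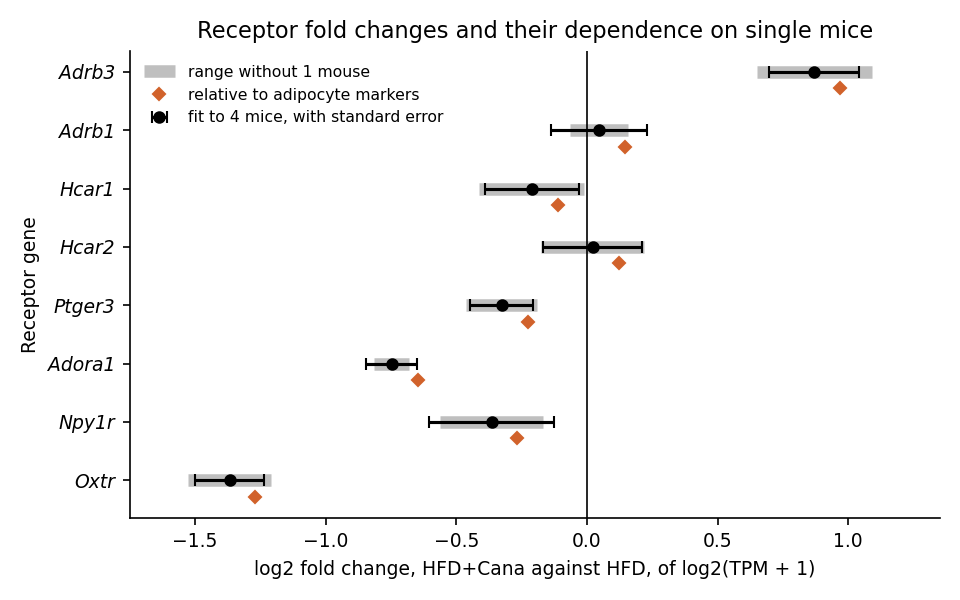
Log2 fold change of HFD+Cana against HFD for the 8 receptors above the filter, on the log2(TPM + 1) scale. Black points and bars are the fit to 4 mice with its standard error, grey bars the range of the values with 1 mouse left out, and orange diamonds the difference relative to the mean of the adipocyte markers. The grey bar stays above 0 for Adrb3 and below 0 for Hcar1 (-0.41 to -0.01), Ptger3, Adora1, Npy1r (-0.56 to -0.17) and Oxtr, and it crosses 0 for Adrb1 and Hcar2.

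Over the set, 8 of the 9 receptors passed the filter of a mean of at least 1 TPM. In limma with Benjamini-Hochberg adjustment over 13788 genes, 0 of these 8 passed an adjusted p of 0.05, where 0.0435% of all genes tested passed in either direction (6 higher and 0 lower), and with any 1 of the 4 mice left out 0 genes passed. The groups were separated, with HFD+Cana above HFD, for 1 receptor (Adrb3), as for 24.3% of all genes tested, and with HFD+Cana below HFD for 3 (Ptger3, Adora1 and Oxtr), as for 19.8%. The other 4 overlapped. Since the set was chosen from this contrast, these counts are read no further. The median log2 fold change over the 8 receptors was -0.27, beside 0.02 over all genes tested, with 5 receptors below 0 and 3 above. A count of separated receptors can only stay or rise when a mouse is left out. Such counts are therefore not set beside the shares of 24.3% and 19.8%, which hold for all 4 mice. With 2 mice a group, the smallest two-sided p that an exact permutation test can give is 0.333.

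The order of the receptors by TPM changed between the groups below Adrb3. In HFD, Adora1, Ptger3, Oxtr and Hcar1 had mean levels of 45.2, 44.7, 42.1 and 36.5 TPM, and each overlapped the next in the values of its 2 mice. Hcar2 (10.2 TPM), Npy1r (2.50 TPM), Adrb1 (1.59 TPM) and Adra2a (0.553 TPM) followed, each below the one before in both mice. In HFD+Cana, Ptger3 (35.2 TPM) overlapped Hcar1 (31.6 TPM), and Hcar1 overlapped Adora1 (26.5 TPM). Oxtr (15.6 TPM) was then clearly below these and above Hcar2 (10.4 TPM). Npy1r (1.71 TPM) and Adrb1 (1.67 TPM) overlapped, and Adra2a (0.348 TPM) was again the lowest.

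Set against each other within a mouse, the receptors gave ratios that do not depend on the scaling of the sample. Adrb3 made up 39.6% and 33.4% of the summed TPM of the 9 receptors in HFD and 63.4% and 58.6% in HFD+Cana. The share of Oxtr was 13.2% and 15.9% in HFD and 4.30% and 5.67% in HFD+Cana. The summed TPM of all 9 did not separate the groups, at 282 and 295 in HFD and 354 and 282 in HFD+Cana. The 6 Gi-coupled receptors summed to 132 and 147 TPM in the 2 HFD mice and 113 and 99.0 TPM in the 2 HFD+Cana mice. Adrb3 stood at 0.848 and 0.668 times this sum in HFD and at 1.99 and 1.67 times in HFD+Cana. Against single receptors, the ratio of Adrb3 to Oxtr was 2.99 and 2.10 in HFD and 14.7 and 10.3 in HFD+Cana, and the ratio to Adora1 was 2.36 and 2.29 in HFD and 8.09 and 6.53 in HFD+Cana. These ratios combine genes picked from the same contrast and are descriptions of the 4 mice.

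**Figure D3:**
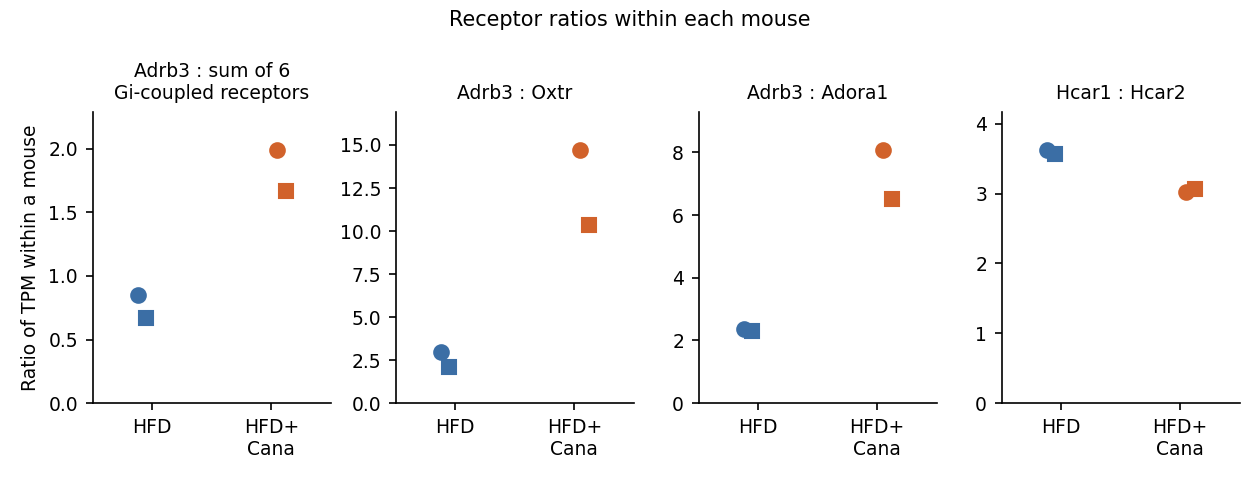
Ratio of TPM between receptors within each mouse, on linear axes that start at 0, with circles for replicate 1, squares for replicate 2, blue for HFD and orange for HFD+Cana. The ratio of Adrb3 to the sum of the 6 Gi-coupled receptors is 0.668 and 0.848 in HFD and 1.67 and 1.99 in HFD+Cana, and the ratio of Hcar1 to Hcar2 lies between 3.02 and 3.63 in all 4 mice.

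The labelled tissue was checked against markers of fat cells and of other cells a fat pad can hold. The fat cell genes Fabp4 (27143 to 32473 TPM over the 4 mice) and Car3 were among the most abundant, and the 16 adipocyte markers summed to 61167 and 66633 TPM in the HFD mice, against 61927 and 73657 TPM in the HFD+Cana mice, which overlapped. Their median log2 fold change was -0.16 (-0.05 without HFD+Cana replicate 1, -0.26 without HFD+Cana replicate 2). Of the 16, 3 were separated higher and 8 lower, beside 24.3% and 19.8% of all genes tested, and 0 passed. When each receptor was set relative to the mean of these markers in its mouse, the median of all genes tested was 0.12. The receptor differences on that scale were 0.97 for Adrb3, -1.27 for Oxtr, -0.65 for Adora1 and -0.23 for Ptger3. The step takes the same value from every gene of a mouse. Differences from the median of all genes are therefore the same with and without it. In that fit 0.305% of all genes tested passed an adjusted p of 0.05 in limma (39 higher and 3 lower), and Oxtr was among them. Since Oxtr was chosen from values of this same contrast, its place there is a description and no test of it.

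Markers of other cells were compared in the same mice. Of the 13 mesothelial markers (the cell layer that covers the pad), 12 were higher in both HFD+Cana mice, with sums of 155 and 128 TPM on HFD alone and 286 and 449 TPM with canagliflozin and a median log2 fold change of 1.85. None of the 13 passed the test over all genes. In limma 12 were higher with p under 0.05 before adjustment, where 5.32% of the genes tested were. Bnc1, among these 12, had an HFD mean of 0.866 TPM. It passed the filter of 1 TPM through its HFD+Cana values of 3.06 and 5.38 TPM. Both counts of 12 and the median of 1.85 include it. Hepatocyte markers had a median of 2.21, and 3 of 10 passed, where 0.0435% of all genes tested did. These 3 (Apoa1, Fabp1 and Ttr, all higher) had HFD means under 1 TPM and passed the filter through the HFD+Cana mice where they are high, so their count supports nothing, and 0 of them passed with any 1 mouse left out. Fga, Fgb and Fgg also had HFD means under 1 TPM and passed the filter the same way. The median of 2.21 rests on such genes, so it supports nothing either. The hepatocyte markers summed to 788 and 1625 TPM in the 2 HFD mice and 1676 and 2632 TPM in the 2 HFD+Cana mice, mostly of Cyp2e1. The 5 red blood cell markers summed to 1756 and 5940 TPM in the HFD mice, against 14391 and 6673 TPM in the HFD+Cana mice, with a median of 1.60, which was 0.71 without HFD replicate 1 and 2.44 without HFD replicate 2. Fibroblast and progenitor markers had a median of 0.26 (0.49 without HFD replicate 2, 0.40 without HFD+Cana replicate 2) and sums of 2410 and 2376 TPM on HFD alone and 3386 and 2571 TPM with canagliflozin. Smooth muscle and pericyte markers (median -0.25, or -0.08 with HFD replicate 2 left out and -0.13 with HFD+Cana replicate 2 left out) summed to 658 and 921 TPM in the 2 HFD mice and 639 and 614 TPM in the 2 HFD+Cana mice, and endothelial markers (median -0.19, or -0.07 without HFD replicate 2) to 920 and 1011 TPM in the HFD mice, against 797 and 861 TPM in the HFD+Cana mice. Skeletal muscle markers (median -1.29) summed to 239 and 274 TPM on HFD alone and 113 and 196 TPM with canagliflozin, most of it Acta1 (220 and 195 TPM, and 99.3 and 187 TPM). Their median rested on HFD replicate 2 and was 0.07 without that mouse. Neutrophil markers, 4 of 8 tested with a median of -0.28, summed to 132 and 59.2 TPM in the 2 HFD mice and 28.9 and 28.5 TPM in the 2 HFD+Cana mice, and most of the gap was S100a8 (117 and 53.7 TPM, and 13.7 and 22.5 TPM). The median of this list was 0.36 without HFD replicate 1 and -0.93 without HFD replicate 2. Retnlg, among the 4 tested, was above 1 TPM only in HFD+Cana replicate 1 (7.12 TPM). It passed the filter through that mouse, so the median rests partly on it. Macrophage markers overlapped, at 2811 and 2017 TPM in the HFD mice, against 3504 and 2056 TPM in the HFD+Cana mice, with a median of 0.0017 that ran from -0.33 to 0.35 when 1 mouse was left out. Glia and nerve markers summed to 29.4 to 38.5 TPM, with 3 of 8 tested (median 0.21). Th, which encodes an enzyme of catecholamine synthesis, was at 0 in all 4 mice, and the nerve supply of the pad was not measured. Of the 8 epididymis markers 4 were at 0 in all mice and 1 was tested. That gene, Crisp1, passed the filter through HFD+Cana replicate 1 alone, and its log2 fold change of 1.45 was 0.59 without that mouse. The list summed to at most 4.74 TPM in any mouse. The part of these cell types in the receptor values was not tested.

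**Figure D4:**
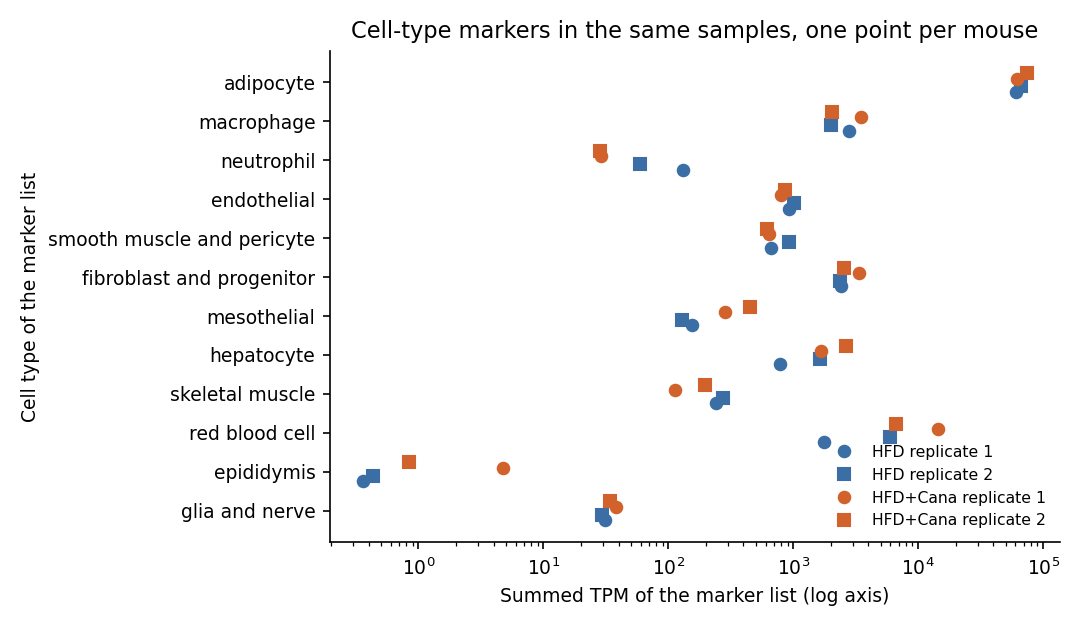
Summed TPM (log axis) of each of the 12 cell-type marker lists in each mouse, with circles for replicate 1, squares for replicate 2, blue for HFD and orange for HFD+Cana. Adipocyte sums overlap between 61167 and 73657 TPM, while mesothelial sums are 128 and 155 TPM on HFD alone and 286 and 449 TPM with canagliflozin.

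The genes around the receptors were taken from 10 lists with 136 genes, of which 117 passed the filter. In limma 0 of the 117 passed an adjusted p of 0.05 in either direction, also under each alternative that kept all the mice. At an unadjusted p under 0.05 in limma there were 5 higher and 10 lower, beside 5.32% of all genes tested higher and 5.45% lower. The lists were chosen with earlier results of these data known, so these counts are read no further. The smallest adjusted p was 0.226. The groups were separated for 13 of the 117 genes with HFD+Cana higher, beside 24.3% of all genes tested, and for 29 with HFD+Cana lower, beside 19.8%. These shares stand behind the counts of separated genes in each list below. The median log2 fold change of the 117 was -0.05.

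Other receptors that raise cAMP or cGMP, 13 tested, had a median log2 fold change of 0.08, with 4 separated higher and 3 lower. Adora2a, a Gs-coupled adenosine receptor, was at 27.1 and 28.4 TPM in the 2 HFD mice and 17.7 and 23.5 TPM in the 2 HFD+Cana mice (-0.43, SE 0.15), on the same side as Adora1. Gipr, the receptor of the incretin GIP, had a log2 fold change of -0.28 (SE 0.12), and Npr1, the receptor of atrial natriuretic peptide, 0.15 (SE 0.08). Npr2, the most abundant of the list, overlapped between the groups. Other Gi- or Gq-coupled receptors, 9 tested, had a median of 0.05 with 1 separated each way. Adra1a, the Gq-coupled α1A-adrenergic receptor, was at 9.42 and 11.7 TPM in the HFD mice, against 6.52 and 6.87 TPM in the HFD+Cana mice (-0.58, SE 0.14), below in both mice. Ffar2 and Ffar4, receptors of short-chain and long-chain fatty acids, and the succinate receptor Sucnr1 overlapped.

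G protein subunits (14 tested, median -0.03) and adenylyl cyclases (6 tested, median -0.07) had medians near 0. Adcy5, a cyclase that makes cAMP, was at 74.4 and 84.8 TPM on HFD alone and 57.4 and 59.4 TPM with canagliflozin (-0.44, SE 0.10). Gnas, which encodes the Gs α subunit, was at 802 to 894 TPM in the 4 mice with a log2 fold change of -0.10 (SE 0.10), and Gnai3, a Gi α subunit, had 0.10 (SE 0.08). Gnao1 (-0.33, SE 0.15) and Gnaq (-0.17, SE 0.08), other α subunits, and the cyclase Adcy6 (-0.18, SE 0.08) were lower in both HFD+Cana mice, and Adcy3 overlapped.

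The cAMP phosphodiesterases, which degrade cAMP, had a median of -0.15 over 9 tested, 2 of them separated lower and 0 higher. Pde3b, through which insulin restrains lipolysis, was at 78.5 and 84.1 TPM in the 2 HFD mice and 82.2 and 89.5 TPM in the 2 HFD+Cana mice, with overlapping groups. Pde7a was at 71.6 and 71.1 TPM in the HFD mice, against 42.7 and 64.3 TPM in the HFD+Cana mice (-0.44, SE 0.20), a difference carried mostly by HFD+Cana replicate 1. Subunits and anchors of protein kinase A had a median of -0.13 over 12 tested, with 1 separated higher and 4 lower. Its catalytic subunit Prkaca had a log2 fold change of -0.16 (SE 0.09), the kinase inhibitor Pkig -0.19 (SE 0.10), and the regulatory subunit Prkar2b overlapped.

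Among proteins that desensitise receptors or speed the turn-off of G proteins, 14 tested had a median of -0.02, with 2 separated higher and 4 lower. The receptor kinases Grk3 (8.12 and 7.77 TPM on HFD alone and 6.14 and 5.72 TPM with canagliflozin) and Grk5 had log2 fold changes of -0.37 (SE 0.11) and -0.23 (SE 0.09). Rgs3 was at 94.3 and 88.1 TPM in the 2 HFD mice and 113 and 122 TPM in the 2 HFD+Cana mice (0.36, SE 0.09), and Rgs5, abundant in pericytes, had -0.23 (SE 0.11). The last 2 are activators of the GTPase of G protein α subunits.

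The list of protein kinase A substrates and lipases also holds Cidec and the lipase inhibitor G0s2, so it mixes genes that favour and restrain lipolysis. All 7 genes of the list had a log2 fold change below 0. Their median was -0.32, beside 0.02 over all genes tested. Of the 7, 4 were separated lower, beside 19.8% of all genes tested. The lipases Pnpla2 (-0.07, SE 0.16) and Lipe (-0.14, SE 0.12) and the inhibitor G0s2 (-0.36, SE 0.39) overlapped between the groups. Plin1, the droplet coat protein that the kinase phosphorylates, was at 691 and 713 TPM in the HFD mice, against 546 and 563 TPM in the HFD+Cana mice (-0.34, SE 0.09). Mgll, the lipase of the last step, was at 785 and 731 TPM on HFD alone and 584 and 570 TPM with canagliflozin (-0.39, SE 0.10). Cidec, a droplet protein that favours fat storage, had -0.32 (SE 0.16). Plin1, Cidec and Lipe (hormone-sensitive lipase) are also in the adipocyte marker list. Genes that the cAMP-activated factor CREB can switch on, 10 tested, had a median of 0.04 with 1 separated higher. That gene was Pck1, at 592 and 855 TPM in the 2 HFD mice and 981 and 1432 TPM in the 2 HFD+Cana mice (0.73, SE 0.27), while Crem and Sik1 overlapped.

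Enzymes and transporters of the ligands, 23 tested, had a median of 0.03 with 3 separated higher and 4 lower. Maoa, which degrades catecholamines, was at 43.3 and 38.6 TPM in the HFD mice, against 26.0 and 27.3 TPM in the HFD+Cana mice (-0.60, SE 0.10). Ptges, which makes the Ptger3 ligand prostaglandin E2, was at 14.2 and 16.8 TPM on HFD alone and 22.6 and 25.0 TPM with canagliflozin (0.59, SE 0.12). Ptgs2, the cyclooxygenase upstream of it, passed the filter through its HFD+Cana values, at 0.357 and 0.625 TPM in the 2 HFD mice and 1.52 and 2.41 TPM in the 2 HFD+Cana mice (0.98, SE 0.25). Ldha, which makes the Hcar1 ligand lactate, was at 790 and 700 TPM in the HFD mice, against 583 and 592 TPM in the HFD+Cana mice (-0.34, SE 0.11). Each of these 4 had non-overlapping groups.

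**Figure D5:**
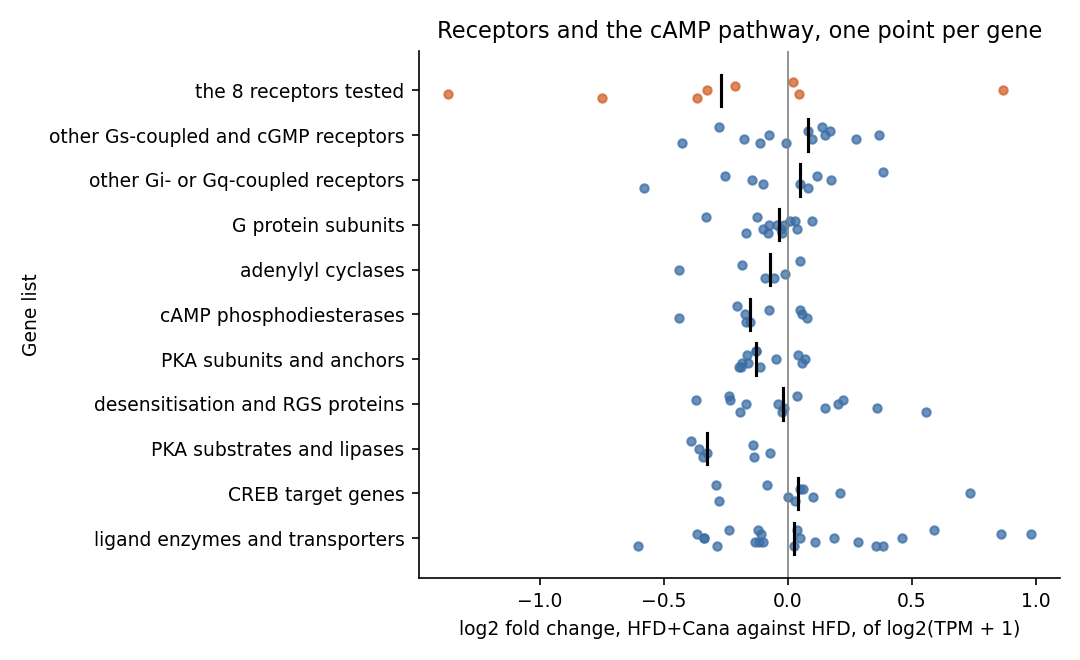
Log2 fold change of HFD+Cana against HFD, on the log2(TPM + 1) scale, with 1 point per gene above the filter and a black line at the median of each list. The 8 receptors tested (orange) run from -1.37 for Oxtr to 0.87 for Adrb3 with a median of -0.27. All 7 genes of the list of protein kinase A (PKA) substrates and lipases, which also holds Cidec and G0s2, lie below 0. They run from -0.39 for Mgll to -0.07 for Pnpla2.

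The genes whose pattern over the 4 mice was most like that of Adrb3 were Pagr1b, Adgrd1 and Clec5a, with Euclidean distances of 0.131, 0.135 and 0.137 between log2(TPM + 1) values centred on their means. Adgrd1, an adhesion G protein-coupled receptor, was at 16.7 and 13.6 TPM on HFD alone and 34.4 and 26.9 TPM with canagliflozin. Clec5a, a lectin-like receptor of myeloid cells, was at 1.39 and 1.11 TPM in the 2 HFD mice and 3.47 and 2.15 TPM in the 2 HFD+Cana mice. Pagr1b, with group means of 2.12 and 4.42 TPM, has a near-identical copy, so its level is uncertain. A total of 26 genes lay within a distance of 0.3, and with 4 points such a likeness is a description.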

How the data were processed

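The authors processed paired 150-base reads of stranded mRNA libraries with nf-core/rnaseq 3.12.0 (nextflow 23.10.0) at default settings and deposited Salmon's TPM, merged to genes. The submitters' processing notes name R 4.3.2 and the build GRCm38 (mm10), and the annotation release is unknown: it is not stated in the sources used. TPM is corrected for transcript length and sums to 1000000 per sample, so depth is unknown and no counting interval was computed. Genes listed above 0 numbered 19884 to 21129 per mouse.

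Columns were mapped by the samples' titles. The 13788 genes whose mean reached 1 TPM entered a limma model (version 3.58.1, R 4.3.3) of log2(TPM + 1) with lmFit, eBayes with a trend and group as the only term, and p-values were adjusted by Benjamini-Hochberg and compared with 0.05. TPM do not allow a count test. Standard errors are those after eBayes, which moderates the spread of each gene. Fold changes on this scale understate those of genes with low TPM. Nothing in the labels says more of how the mice were housed or sampled, so p-values measure the spread between these samples.

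The 9 receptors and all gene lists were chosen with earlier results of these data known. Named genes were the receptors, up to 3 genes of smallest p and the most abundant gene of each pathway list, the 2 most abundant genes of each marker list, and the 3 genes nearest to Adrb3 in pattern, and not all of them are printed. Apoa1, Fabp1, Ttr, Fga, Fgb, Fgg, Bnc1, G0s2, Th, Lipe, Pnpla2 and Retnlg were named after their values were seen. Grk2 and Grk3 were matched by gene ID. GENCODE M21 gave positions (45143 of 45706 IDs matched), and RefSeq (GRCm38.p6) gave promoter windows. Alternatives were pseudocounts of 0.1 and 5, no filter, a filter of 5 TPM, scaling by quantiles or by the median of ratios, TPM rescaled without mitochondrial DNA genes, values relative to adipocyte markers, eBayes without trend or robust, the replicate number as a block, and leaving out each mouse (for the marker lists and Crisp1, chosen after seeing the data). Python 3.11.15, pandas 2.3.3, numpy 2.4.6 and matplotlib 3.10.9 were used.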

Additional observations from a re-analysis of the deposited data

How the results depend on the processing

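The number of genes that passed over all genes in limma, 6 higher and 0 lower, depended on the processing. It was 0 higher with a pseudocount of 0.1, with no filter, with a mean of at least 5 TPM and with quantile normalization, 2 higher with a pseudocount of 5, 13 higher in eBayes without trend, and 0 to 0 higher when each mouse was left out. It was 6 higher with median-of-ratios scaling, without genes of mitochondrial DNA and with robust eBayes, and 0 lower in all of these. Relative to adipocyte markers it was 39 higher and 3 lower. With the replicate number as a block it was 2 higher. The numbers come with no shared litter or day, and the correlation across genes of the replicate 1 minus 2 differences of the groups was 0.18, from only 2 pairs, so they were not read as a pairing. The replicate block changed no receptor's call. No receptor passed in any alternative except Oxtr relative to adipocyte markers, a call on a gene chosen from this contrast. Leaving out 1 mouse gave medians over the receptors of -0.41 to -0.09. The number of receptors separated lower was 4 with no filter, quantile normalization or median-of-ratios scaling. Adrb3 stayed higher in all alternatives run, and Ptger3, Adora1, Oxtr, Hcar1 and Npy1r stayed lower, whereas Adrb1 and Hcar2 turned sign in some. The groups of Adrb3, Ptger3, Adora1 and Oxtr do not overlap, so leaving out a mouse could not turn their sign. The causes were not tested. With 2 mice a group and unknown depth, differences of Adra2a, Adrb1 and Npy1r, listed at a few TPM or less, were not detectable beyond the spread between mice.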
